A study of Oryza sativa Japonica Group with 8 samples.

Results

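The 63 gene IDs described here had fewer reads in transgenic rice carrying RD29a:DREB1a (T) than in its control (N), both at room temperature (RT) and after a cold shock (CS). They were chosen on these same values. For every ID, CPM values (the count divided by the library total, times 1000000) were averaged over the 2 libraries of a group, 1 was added and log2 was taken. An ID starting with Os was kept where T minus N was at most -0.7 at each temperature, which held for 63 of 37849 such IDs, or 0.166%. At room temperature alone 0.692% of the IDs met the limit, and after cold shock 5.58%. The T minus N differences below therefore describe the selection and carry no test.

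The groups were T_RT, N_RT, T_CS and N_CS. All were aerial parts of 10-day-old seedlings of a japonica rice in the Taipei 309 background, and the cold groups had stood on ice for 20 h. Each group was a single RNA pool of 6 seedlings from which 2 libraries were made, so the spread between libraries is technical and every p-value compares pools. The sample labels give T as homozygous lines 11, 20 and 29, picked because DREB1a was induced to a similar degree, and N as Taipei 309 wild type. The paper does not list the same set of lines and takes N to be T5, the Cre-lox founder line, which the series also calls wild type. T further carries the marker genes NPTII, GUS, GFP and pporRFP at the same locus, so an effect of DREB1a cannot be told apart from one of the other inserted genes, of the site or of the line. The transgenes were not analysed here, so the label of T was not checked here by its own gene. The paper reports far more DREB1a reads in T_CS than in T_RT, where it found very few, and gives no such counts for N.

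DREB1A of Arabidopsis, also called CBF3, is a transcription factor of the AP2/ERF family that binds the dehydration-responsive element in the promoters of cold- and drought-induced genes and activates them. The RD29A promoter holds such elements and is itself switched on by cold, drought and salt, so a gene placed behind it is expressed mainly under stress. Rice has DREB1 genes of its own that respond to cold.

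The files hold IDs alone. The gene table used here is of another assembly and listed 1 of the 38978 IDs and none of the 63, so no gene name, function, promoter or protein is given for them, and marker genes of aerial tissue could not be checked by name. The paper names 65 of the IDs, and 0 of those were among the 63. It names most of them for being higher in T than in N after cold shock, which the rule excludes. Library totals ranged from 18963211 to 24405824 counts, and Pearson's r of log2(CPM + 1) between the libraries of a pool was 0.9951 to 0.9961 across tested IDs. Because seedling RNA was measured in bulk, fewer cells of a type and less RNA per cell cannot be told apart.

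As a share of all counts, the 63 IDs took 0.0942% and 0.0944% in the T_RT libraries, against 0.204% and 0.205% in N_RT. In the cold they took 0.0595% and 0.0611% in T_CS, against 0.156% and 0.155% in N_CS. The level in T as a percentage of that in N had a median of 39.9% at room temperature, with a range of 5.38% to 60.6%. After cold shock the median was 32%, with a range of 5.34% to 59%. For all 63 IDs both T libraries lay below both N libraries at either temperature, which the choice of the IDs nearly fixes. Among all tested Os IDs the same held for 39.8% at room temperature and 46% in the cold. All 4 T libraries lay below all 4 N libraries for 49 of the 63 IDs, against 8.4% of the tested Os IDs. The choice of the IDs favours this pattern too, so the contrast describes the selection and is no separate support.

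**Figure D1:**
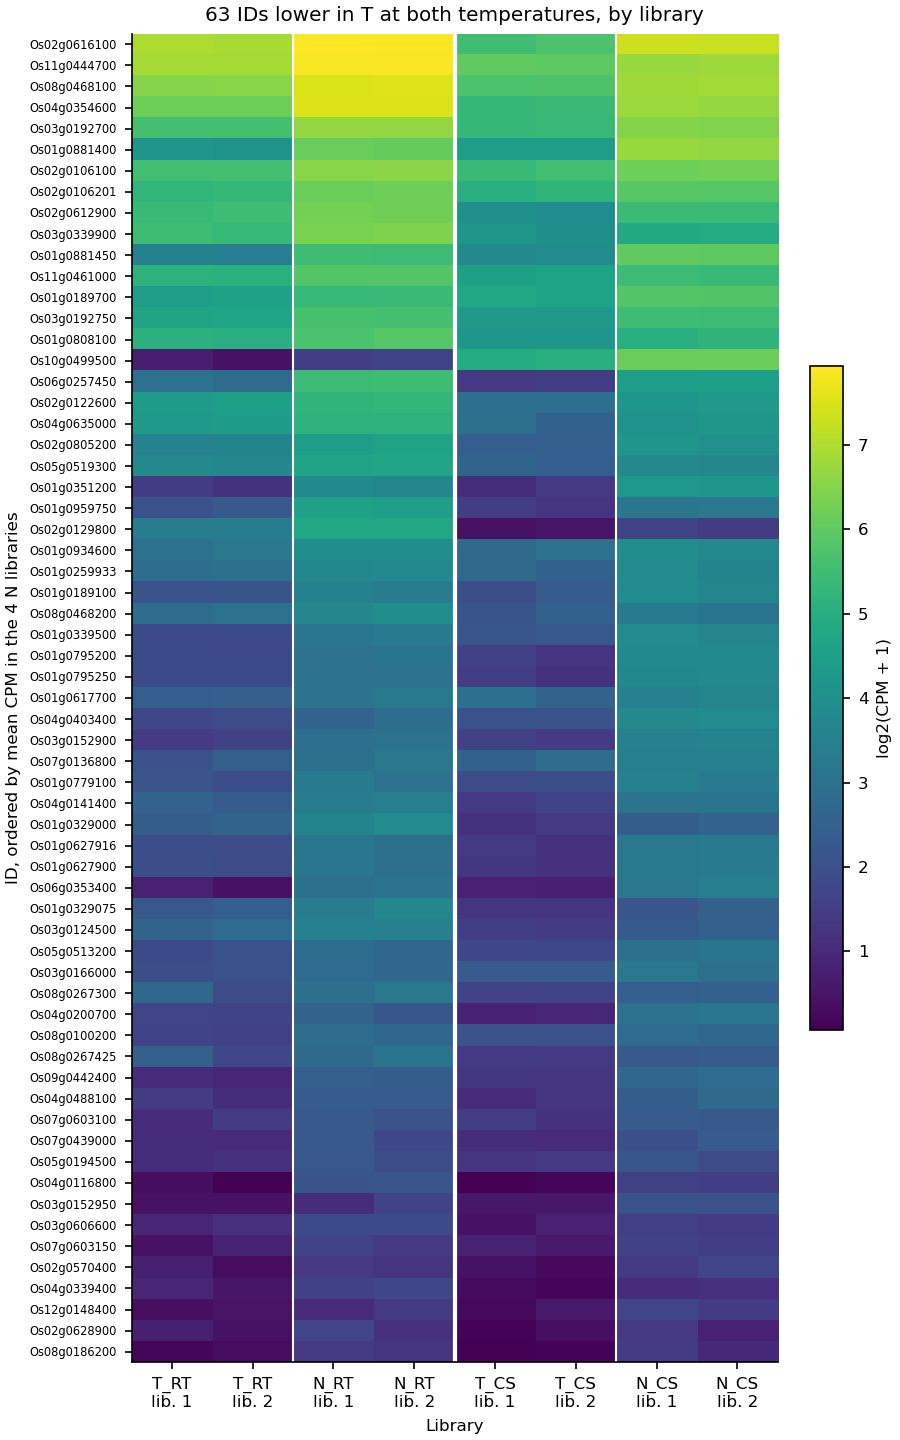
Heat map of log2(CPM + 1) for the 63 IDs (rows, ordered by mean CPM in the 4 N libraries) in the 8 libraries (columns, with T left of N at each temperature). In every row both T columns are darker than both N columns of the same temperature, and the mean N level runs from 199.6 CPM at the top to 1.41 CPM at the bottom.

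The IDs spanned a wide range of levels. Their mean over the 4 N libraries had a median of 9.5 CPM, close to the 10.4 CPM of all tested IDs, with 11 IDs at 50 CPM or more and 13 under 5 CPM. Since 1 was added to each mean, a low ID needed a larger ratio to be chosen than a high one. The highest was Os02g0616100, with 123.3 and 119.6 CPM in T_RT, against 244.2 and 238.0 CPM in N_RT. In the cold it had 44.6 and 50.8 CPM in T_CS, against 160.8 and 155.4 CPM in N_CS. T thus stood at 50.4% of N at room temperature and at 30.2% after cold shock.

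Os11g0444700 was next, with 115.7 and 117.0 CPM in T_RT, against 232.0 and 232.9 CPM in N_RT. In the cold its T_CS libraries had 63.4 and 61.3 CPM, against 104.9 and 108.2 CPM in N_CS. Its T level was 50% of N at room temperature and 58.5% in the cold, so its gap was the narrower one after cold shock. Os08g0468100 had 89.5 and 92.2 CPM in T_RT, against 179.2 and 186.8 CPM in N_RT, and 50.9 and 52.3 CPM in T_CS, against 111.9 and 114.6 CPM in N_CS. Os04g0354600 had 72.6 and 71.8 CPM in T_RT, against 182.8 and 184.1 CPM in N_RT, and 38.3 and 40.2 CPM in T_CS, against 107.9 and 101.7 CPM in N_CS. In these 2 IDs T held nearly the same percentage of N at both temperatures, 49.6% and 45.6% in Os08g0468100 and 39.4% and 37.5% in Os04g0354600.

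Of the remaining IDs among the 10 highest, Os03g0192700, Os02g0106100, Os02g0106201, Os02g0612900 and Os03g0339900 had T at 47.8% to 56.2% of N at room temperature. In the cold, T stood at 34.2% of N in Os02g0612900, at 45.1% in Os03g0192700 and at 57% to 59% in the other ones. Os01g0881400 differed from them, with 16.9 and 16.4 CPM in T_RT, against 70 and 66.4 CPM in N_RT. Its T_CS libraries had 21.4 and 20.9 CPM, against 104.1 and 99.6 CPM in N_CS, which put T at 24.4% and 20.7% of N.

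T stood below 25% of N at both temperatures in 9 IDs. The lowest sum of the 2 differences belonged to Os06g0257450, which had 7.26 and 6.15 CPM in T_RT, against 43.3 and 44 CPM in N_RT. In the cold it had 1.66 and 1.9 CPM in T_CS, against 21.3 and 21.7 CPM in N_CS. T minus N was -2.53 at room temperature and -3.02 after cold shock on the log2(mean CPM + 1) scale, and the highest T library stayed well under the lowest N library across temperatures. Os01g0351200 followed, with 1.7 and 1.31 CPM in T_RT, against 13.1 and 11.9 CPM in N_RT, and 1.14 and 1.58 CPM in T_CS, against 18.3 and 17.4 CPM in N_CS. Here the differences were -2.43 and -3.0, and the level in N was the higher one in the cold while that in T was about the same.

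Os06g0353400 had few reads in T, with 0.735 and 0.369 CPM in T_RT, against 6.88 and 7.31 CPM in N_RT. Its T_CS libraries had 0.71 and 0.686 CPM, against 8.22 and 9.77 CPM in N_CS. T was at 7.78% of N at room temperature and at 7.76% in the cold, a gap that hardly differed between temperatures. Os01g0959750 had its wider gap at room temperature, with 3.17 and 3.82 CPM in T_RT, against 22.7 and 21.4 CPM in N_RT. In the cold it had 1.89 and 1.37 CPM in T_CS, against 7.95 and 8.25 CPM in N_CS. The differences were -2.36 and -1.79.

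The smallest percentage of all was that of Os04g0116800, with 0.276 and 0.0821 CPM in T_RT, against 3.28 and 3.37 CPM in N_RT, and 0.0473 and 0.158 CPM in T_CS, against 1.97 and 1.88 CPM in N_CS. These T values rest on 8 counts over the T_RT libraries and 4 over T_CS. Os08g0186200 had 9 counts over T_RT, and over T_CS only 3, against 57 over N_CS. For this ID the ratio in the cold was 5.58% of N, with an exact 95% interval of 1.12% to 17.2% that covers counting error only. No ID was at 0 in all T libraries.

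**Figure D2:**
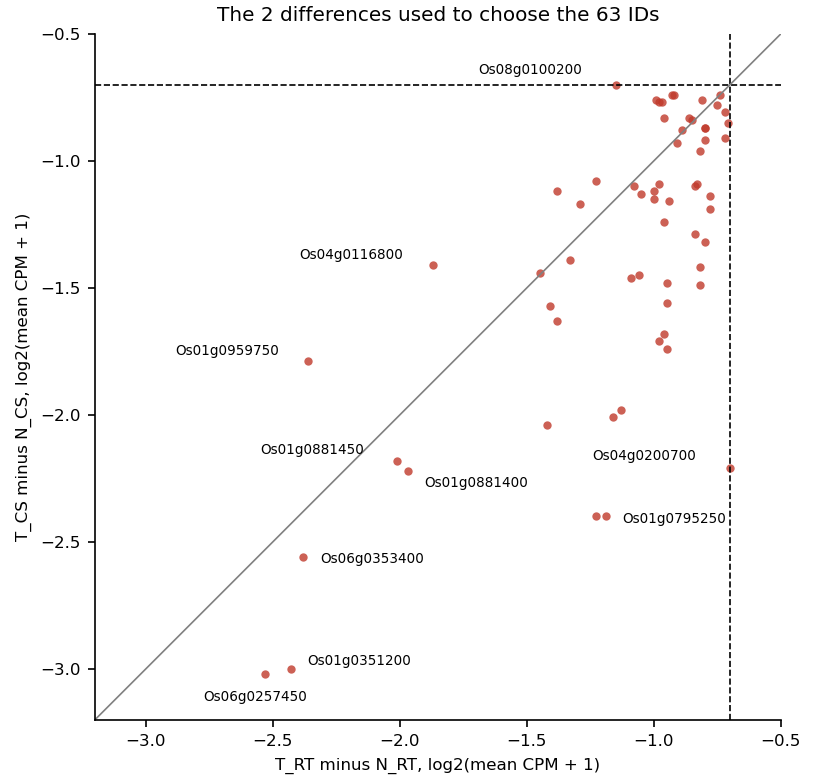
T minus N on the log2(mean CPM + 1) scale at room temperature (x axis) and after cold shock (y axis), 1 point for each of the 63 IDs. Dashed lines mark the limit of -0.7 used to choose them and the grey line marks equal differences. Of the points, 46 lie below the grey line, where the gap was wider in the cold on this scale. The share of all tested Os IDs below that line was not counted. Os06g0257450 and Os01g0351200 lie farthest from both limits.

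On the log2(mean CPM + 1) scale the gap was wider in the cold for 46 IDs and wider at room temperature for 17, and in 39 IDs the 2 differences lay within 0.3 of each other. Cold minus room temperature, the difference of the differences ran from -1.51 to 0.57 with a median of -0.16. Without the added 1, the ratio of T to N was the lower one in the cold for 50 IDs and at room temperature for 13, and 10 IDs had their wider gap at the other temperature, such as Os10g0499500 and Os02g0129800. The lower end of the first scale was Os04g0200700, with 2.25 and 2.22 CPM in T_RT, against 5 and 3.52 CPM in N_RT, and 0.805 and 0.896 CPM in T_CS, against 7.26 and 7.89 CPM in N_CS. T stood at 52.4% of N at room temperature and at 11.2% after cold shock. Os01g0795200 had 2.53 and 2.59 CPM in T_RT, against 7.17 and 7.57 CPM in N_RT, and 1.94 and 1.37 CPM in T_CS, against 12.9 and 13.2 CPM in N_CS. Its T level was 34.7% of N at room temperature and 12.7% in the cold. The rule fixed both differences, so the change between temperatures was not tested. The 46 to 17 and 50 to 13 splits were not counted over all tested Os IDs. They are therefore not read as a trait of the selection. Of all Os IDs, 5.58% met the limit after cold shock and 0.692% at room temperature. The median T minus N over all tested Os IDs was -0.10 in the cold and -0.06 at room temperature.

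At the edge of the selection, the IDs just inside the limit were Os08g0100200, with differences of -1.15 and -0.70 at room temperature and in the cold, Os04g0200700 with -0.70 and -2.21, and Os11g0461000 with -0.71 and -0.85. Just outside lay Os08g0458200 with -0.70 and -1.04, Os07g0509800 with -0.83 and -0.70, and Os12g0532600 with -0.85 and -0.70. At 2 decimals the deciding difference was the same in Os08g0100200 inside and Os08g0458200 outside, so the boundary separates IDs with nearly equal values. With library sizes scaled by TMM (trimmed mean of M values) 51 of the 63 IDs met the rule, while both differences stayed below 0 in all 63, the one nearest 0 at -0.64.

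The IDs carry their chromosome, and all 12 rice chromosomes were represented. Chromosome 1 held 18 of the 63, or 28.6%, beside 14.4% of all tested Os IDs. The 18 count both IDs of each pair with near-equal counts described below, so the number of separate genes there is uncertain. Chromosome 4 held 8 IDs, 12.7% beside 8.77%, and chromosome 8 held 6, 9.52% beside 6.59%. Chromosomes 5, 6, 9, 10, 11 and 12 had between 1 and 3 each, and in each of them the share of the 63 was below the share of the tested IDs. These shares are a description and were not tested.

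**Figure D3:**
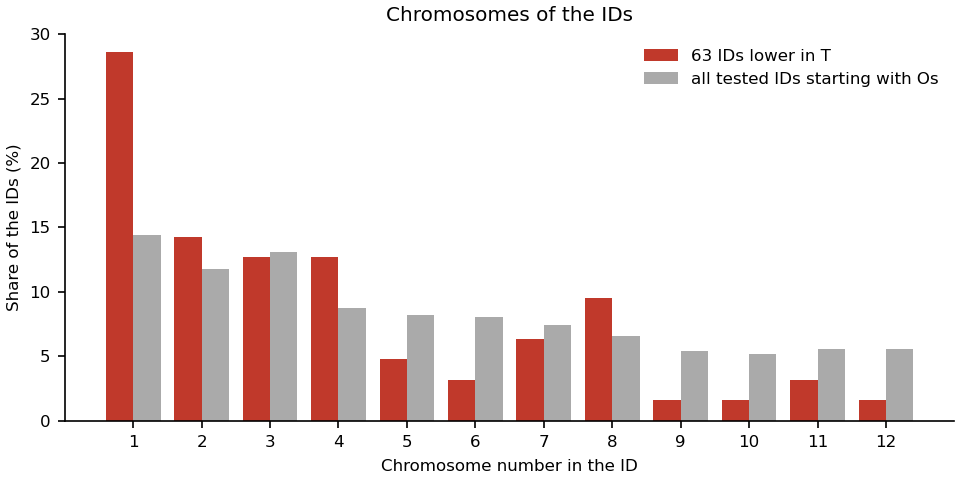
Share of IDs (y axis, %) on each chromosome (x axis) for the 63 IDs lower in T (left bars) and all 28133 tested IDs starting with Os (right bars). Chromosome 1 has 28.6% of the 63 IDs, with both IDs of every pair counted, and 14.4% of the tested ones.

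In ID order, 22 of the 63 stood directly beside another of the 63, in 11 pairs and in no longer run. How often this would hold for other sets of tested Os IDs was not counted, so it is not read as a trait of the 63. In 3 pairs, all on chromosome 1, the count of either ID was at most 25% above that of the other in all 8 libraries, namely Os01g0329000 with Os01g0329075, Os01g0627900 with Os01g0627916 and Os01g0795200 with Os01g0795250. Near-equal counts like these concern 6 of the 63 IDs, or 9.52%, beside 10% of all tested Os IDs. How reads over more than 1 ID were counted, and on which strand, is not given in the sources used here, so each of these pairs may hold the same reads and its members are uncertain as separate genes. Pairs that kept a steady ratio, described next, may share part of their reads as well. The number of separate genes among the 63 is therefore uncertain.

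The other 8 pairs differed more in level. Os01g0881450, the partner of Os01g0881400, had 10.5 and 9.72 CPM in T_RT, against 44.3 and 43.1 CPM in N_RT. In the cold it had 12.6 and 13.5 CPM in T_CS, against 63.6 and 61.8 CPM in N_CS. Its counts were below those of Os01g0881400 by 1.54- to 1.7-fold in every library, and T stood at 23.2% and 20.8% of N, nearly as in its partner. Os02g0106100 exceeded Os02g0106201 by 1.23- to 1.31-fold, Os08g0267300 exceeded Os08g0267425 by 1.1- to 1.35-fold and Os03g0192700 exceeded Os03g0192750 by 1.88- to 2.13-fold. Os08g0468100 and Os08g0468200 were 11.1- to 15.4-fold apart, yet T was at 49.6% and 50.5% of N in them at room temperature and at 45.6% and 48.6% in the cold.

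The other pairs kept a less steady ratio. Os07g0603100 exceeded Os07g0603150 by 1.79- to 3-fold and Os03g0152900 exceeded Os03g0152950 by 3.31- to 5.86-fold, both at low counts. Os01g0189100 had 0.11 to 0.268 times the counts of Os01g0189700. T stood at 32.3% and 27.1% of N in Os01g0189100, and at 54.6% and 45.6% in Os01g0189700, so the gap was not the same in the 2 IDs. For Os08g0267300 the libraries of T_RT lay far apart, at 5.47 and 2.75 CPM, against 6.84 and 8.4 CPM in N_RT, and Os08g0267425 showed the same split with 4.55 and 2.38 CPM in T_RT. Neither of these IDs met the rule when the second T_RT library was left out.

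Outside the selection, 83 tested IDs stood directly beside at least 1 of the 63. Both differences were below 0 in 46 of them, or 55.4%, beside 37.9% of all tested Os IDs. Their median T minus N was -0.14 at room temperature and -0.20 in the cold, against -0.06 and -0.10 over all tested Os IDs. Os11g0444800, beside Os11g0444700, had means of 58.9 CPM in T_RT, against 128.5 CPM in N_RT, and of 28.7 CPM in T_CS, against 41.3 CPM in N_CS. It met the limit at room temperature with -1.11 and missed it in the cold with -0.51. Os12g0147800, beside Os12g0148400, went the opposite way in the cold, with 70.9 CPM in T_CS, against 10.4 CPM in N_CS, and means of 15.6 CPM in T_RT and 16.3 CPM in N_RT. None of the 83 had near-equal counts with its neighbour among the 63.

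A change with cold was tested on the average of both genotypes, (T_CS + N_CS)/2 against (T_RT + N_RT)/2. Its error is nearly independent of the error in the 2 differences that chose the IDs. The T_CS level still enters both, so the shares below are not free of the choice. The median fitted change with cold was -0.49 in T and 0.05 in N. By edgeR's quasi-likelihood test with Benjamini-Hochberg adjustment over 28218 IDs and a limit of 0.01, 11 of the 63 rose with cold, 26 fell and 26 did not pass. That is 17.5% higher and 41.3% lower, beside 27.3% higher and 27.4% lower among all tested IDs. The median log2 fold change was -0.13 over the 63, beside 0.00 over all tested IDs, and the median absolute change was 0.58, beside 0.33. Among the 26 that did not pass, the fitted values ran from -0.88 to 0.77, and 7 of them had an unadjusted p under 0.05.

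By level, of the 19 with a mean N level of at least 20 CPM, 14 fell and 4 rose, whereas 29.9% of the 9889 tested IDs at that level fell and 46.6% rose. This split was not planned beforehand. The 14 include small falls in Os02g0106100 (-0.11), Os03g0192700 (-0.13) and its pair partner Os03g0192750 (-0.17), whose calls were lost when DESeq2 replaced edgeR. Of the 44 below 20 CPM, 12 fell and 7 rose, which is 27.3% and 15.9%, close to the 26% lower and 16.9% higher among the 18329 tested IDs at that level. With 1 ID kept of each near-equal pair, 11 rose and 25 fell. Of the 51 IDs that also met the rule on TMM-scaled sizes, 7 rose and 21 fell.

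The deepest fall was that of Os02g0129800, with 0.331 and 0.422 CPM in T_CS, against 9.6 and 9.6 CPM in T_RT. In N it had 2.19 and 1.78 CPM in N_CS, against 26.7 and 26.6 CPM in N_RT. Both genotypes were far lower in the cold, and the averaged log2 fold change was -4.08 (SE 0.139, edgeR adjusted p = 6.07e-37). The next ones were Os01g0329000 with -1.45 (SE 0.136, edgeR adjusted p = 7.49e-15), its near-equal neighbour Os01g0329075 with -1.39, Os06g0257450 with -1.35 (SE 0.0988, edgeR adjusted p = 1.29e-19) and Os03g0339900 with -1.33 (SE 0.0511, edgeR adjusted p = 4.78e-34). The fitted values of the 5 IDs just named were below 0 in T and in N alike. Among the most abundant IDs, Os02g0616100 fell by 0.87, Os11g0444700 by 0.90, Os04g0354600 by 0.73 and Os08g0468100 by 0.64 on the averaged log2 scale.

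In the other direction, Os10g0499500 stood apart. It had 28.8 and 32 CPM in T_CS, against 0.597 and 0.369 CPM in T_RT. In N it had 68.9 and 68.8 CPM in N_CS, against 1.8 and 2.13 CPM in N_RT. The averaged log2 fold change was 5.67 (SE 0.099, edgeR adjusted p = 7.50e-54), and the cold libraries were above those at room temperature in both genotypes. The level in T was 24.6% of N at room temperature and 44.1% in the cold. The T_RT value rests on 22 counts.

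The other 10 IDs that rose did so by 0.41 to 0.90. Os04g0403400 had 3.17 and 3.32 CPM in T_CS, against 2.34 and 2.67 CPM in T_RT, and 12.8 and 13.5 CPM in N_CS, against 4.92 and 6.58 CPM in N_RT. Its averaged value was 0.90 (SE 0.129, edgeR adjusted p = 9.38e-09), made up of a fitted 0.48 in T and 1.32 in N. Os01g0339500 followed with 0.70, Os09g0442400 with 0.66 and Os07g0136800 with 0.59. The neighbours Os01g0881400 and Os01g0881450, in which T stood below 25% of N at both temperatures, rose by 0.58 and 0.56.

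**Figure D4:**
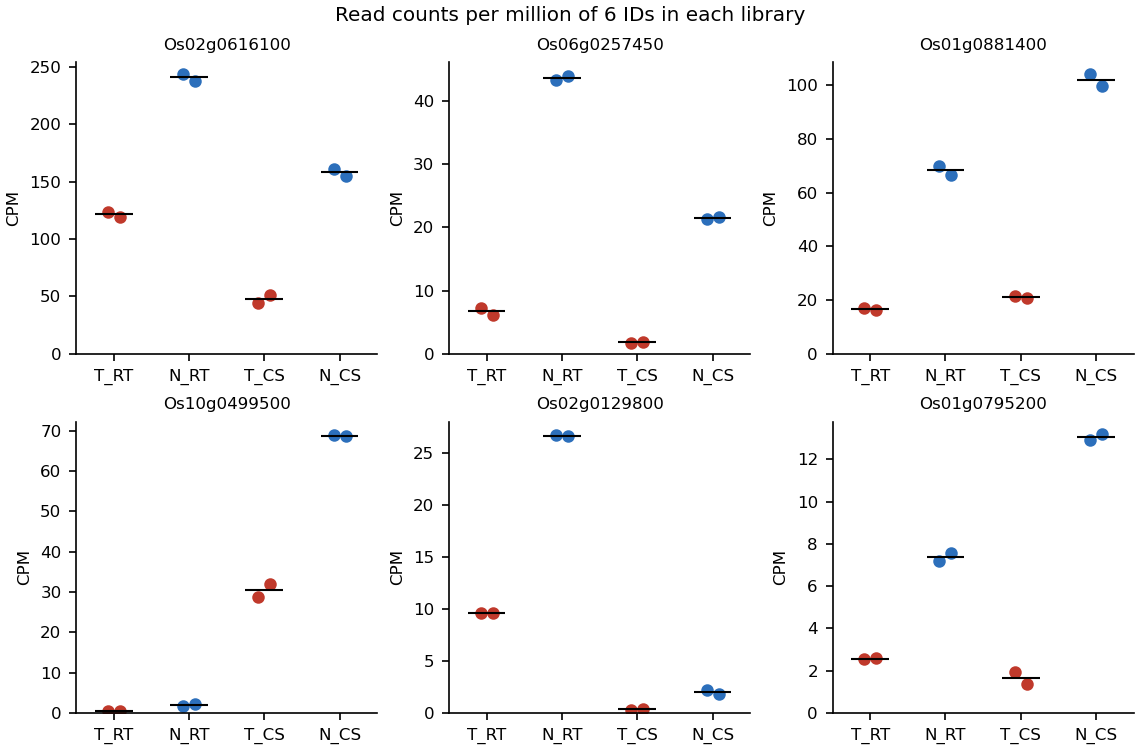
CPM (y axis, from 0) of 6 of the IDs in each library, by group (x axis; T in red, N in blue), with points for the 2 libraries of a pool and a black line at their mean. Os02g0616100, Os06g0257450 and Os02g0129800 are lower in the cold in both genotypes, Os01g0881400 and Os10g0499500 are higher in both, and Os01g0795200 is at 1.94 and 1.37 CPM in T_CS, against 2.53 and 2.59 CPM in T_RT, but at 12.9 and 13.2 CPM in N_CS, against 7.17 and 7.57 CPM in N_RT.

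Within each genotype, the fitted cold response is a description, since its error is tied to that of the rule's differences. The median log2 fold change of the 63 was -0.49 in T, against 0.05 in N, beside -0.01 in T and 0.01 in N over all tested IDs. The fitted value was below 0 in both genotypes for 31 IDs and above 0 in both for 20. In 12 IDs it was below 0 in T and above 0 in N, and in 0 IDs was it the other way round. These signs were not counted over all tested IDs, so the counts are not read as a trait of the 63. Os02g0616100, for instance, had -1.24 in T and -0.50 in N, and Os02g0612900 had -1.44 in T and -0.73 in N. In Os11g0444700 and Os01g0959750 the order was reversed, with -0.78 in T and -1.02 in N for Os11g0444700 and with -0.97 in T and -1.34 in N for Os01g0959750. In 6 IDs, or 9.52%, both T libraries were lower and both N libraries higher in the cold than at room temperature, beside 7.73% of all tested Os IDs. How far the genotypes differed in their response rests on the same 4 group means as the rule, although on another scale, so it was not tested.

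**Figure D5:**
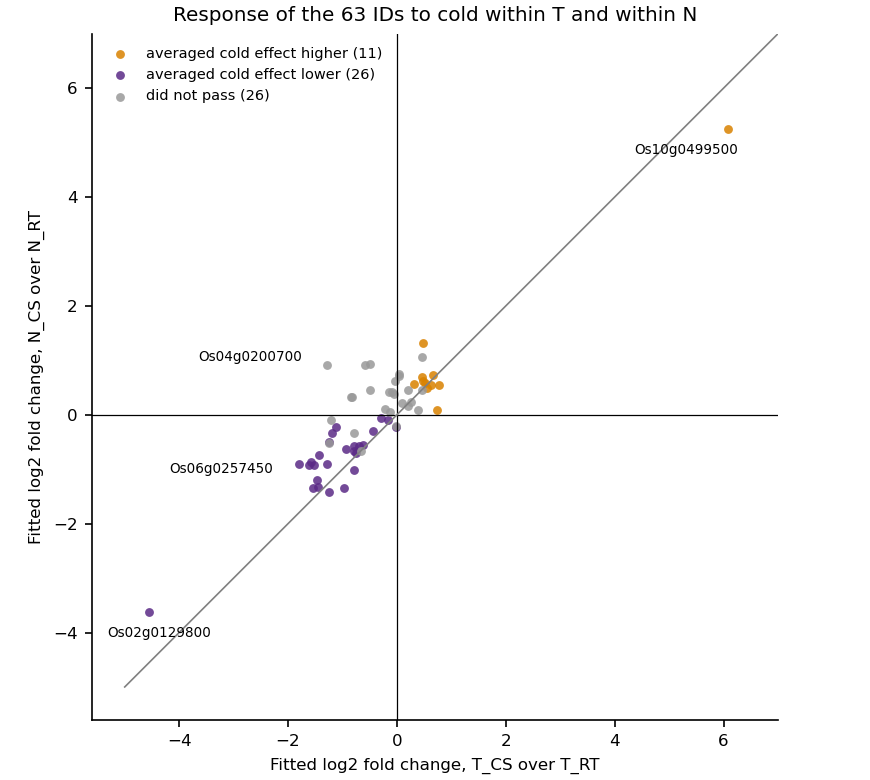
Fitted log2 fold change with cold within T (x axis) and within N (y axis) for the 63 IDs, coloured by the result of the averaged test (11 higher, 26 lower, 26 that did not pass). The grey line marks equal responses, Os10g0499500 and Os02g0129800 lie at its far ends, and Os04g0200700 lies at -1.28 in T and 0.92 in N.

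Of the 37 calls on the averaged cold effect, 7 were lost in at least 1 of 15 other fits. In edgeR fits that left out 1 library, Os08g0100200 lost its call each time, with an adjusted p of 0.0116 to 0.045. Os02g0106100 lost it without the first T_RT (edgeR adjusted p = 0.0172), the second T_RT (0.031), the first T_CS (0.139) or the first N_CS library (0.0431). Os03g0192750 lost it without the second library of T_RT (edgeR adjusted p = 0.0267), T_CS (0.0141) or N_CS (0.0126), and Os04g0339400 without the first T_RT (0.0433) or the second T_CS library (0.0113). Os08g0267300 lost its call without the first T_RT library, with a log2 fold change of -0.44 in place of -0.72 (edgeR adjusted p = 0.0173), and Os09g0442400 without the second T_RT library (edgeR adjusted p = 0.0135). For Os03g0192700 the fit with DESeq2 was the only one that lost the call (DESeq2 adjusted p = 0.0203). DESeq2 also lost the calls of Os02g0106100, Os03g0192750, Os04g0339400, Os08g0100200 and Os09g0442400. RLE scaling lost that of Os02g0106100, and total-count scaling that of Os08g0100200. In at least 1 of the other fits, 2 calls were gained.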

How the data were processed

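RNA-seq of 8 libraries (4 pools of 6 seedlings, 2 libraries each, in the groups T_RT, N_RT, T_CS and N_CS) was analysed. The deposited values are whole-number read counts per gene ID. According to the submitters' processing notes and the methods, the authors used Trimmomatic, STAR, featureCounts 1.6.4, edgeR and the IRGSP-1.0 build. The libraries were made with a directional kit. The settings for strand and for reads over several places or IDs are not given in the sources used here. The counts were used as raw counts, since their totals differ, and 0 columns of per-sample values were left unused.

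The 63 IDs, the named genes and the lists were chosen with earlier results of these data known. The IDs follow from the stated rule on CPM. Named were the 10 with the highest level in N, the 10 with the lowest sum of differences, the 5 highest and 5 lowest cold effects past the limit, the IDs at 0 in T, IDs the paper names, the runs of neighbouring IDs (11 pairs of equal length, all named) and 3 IDs on each side of the limit. Other IDs in the text were chosen after their values were seen.

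Cold was tested in R 4.3.3 with edgeR 4.0.16 (filterByExpr at its default minima of 10 for the count and 15 for the total, TMM, quasi-likelihood fit with 1 mean per group, Benjamini-Hochberg limit of 0.01). All 63 IDs passed the filter, among 28218 of 38978. An SE is the log2 fold change divided by the root of its F value. At this depth, 3 counts correspond to 0.123 to 0.158 CPM in a library. Adjacent means next in ID order on the same chromosome. The fit was tested on simulated data. The alternatives were DESeq2 1.42.0, RLE and total-count scaling, other filters and limits, a likelihood ratio test, a replicate block, other settings of the rule and leaving out each library. Keeping 1 ID of near-equal pairs, a minimum of 20 counts in N and the TMM-scaled rule for the cold counts were added after seeing the data. The split of the cold calls at an N level of 20 CPM was not planned beforehand either. Functional classes and promoter motifs were not analysed here.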

Additional observations from a re-analysis of the deposited data

Results flagged for a closer look

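In 6 of the 63 IDs, both T libraries were lower in the cold than both at room temperature, while both N libraries were higher. The same pattern was seen in 7.73% of all tested Os IDs, beside 9.52% of the 63. The difference between the genotypes was not tested, because it rests on the same group means that chose the IDs. The fitted log2 fold change with cold was -1.28 in T and 0.92 in N for Os04g0200700. That ID missed the rule with TMM-scaled sizes, with DESeq2 size factors and with 2 added to the mean CPM. Leaving out the second T_RT or the first N_RT library dropped it as well. For the other IDs the values were as follows. It was -0.50 in T and 0.94 in N for Os01g0795200, and -0.59 in T and 0.92 in N for its near-equal neighbour Os01g0795250. For Os01g0627900 it was -0.84 in T and 0.33 in N, and for its near-equal neighbour Os01g0627916 it was -0.83 in T and 0.33 in N. Os05g0513200 had the smallest values, -0.14 in T and 0.41 in N. Both near-equal pairs may count the same reads. With 2 libraries in a group, no library was checked for standing apart from its group.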

How the results depend on the processing

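The number of IDs depended on the settings of the rule. It was 115 with 0.5 added to the mean CPM, 280 at a limit of -0.5 and 24 at a limit of -1. It was 51 with TMM-scaled sizes, 50 with DESeq2 size factors and 43 with 2 added. Leaving out 1 library gave 63 to 71 IDs, and 42 of the 63 were in all 8 of these lists. Asking also for log2 fold changes of at least 1 in size left 1 ID higher and 12 lower with cold. The 51 IDs meeting the rule on TMM-scaled sizes held 7 higher calls. Leaving out 1 library gave 9 to 11 higher and 23 to 26 lower calls, and DESeq2 gave 9 and 22. With the replicate block there were 11 higher and 26 lower calls, the same IDs as without it. The replicate numbers did not pair the libraries, since their deviations correlated between groups at -0.0207 to 0.0112. Of the cold values of the 10 IDs named for them, 118 kept direction and call under the alternatives and 2 lost the call, both of Os09g0442400 (0.67 with DESeq2 and 0.59 without the second T_RT library). None of these 10 reversed. The search for promoter motifs was not run, as no sequence of the build was at hand. Each group is 1 pool, so differences between plants were not measured.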
